A study of Mus musculus with 12 samples.

Results

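Rrad, the other RGK GTPase genes and the genes of the cardiac L-type calcium channel were followed in mouse heart RNA over 12 libraries in 4 groups of 3. The genes were taken by symbol from a table of 19246 genes: the RGK genes Rrad, Gem, Rem1 and Rem2, and the channel genes Cacna1c, Cacnb2 and Cacna2d1. Of these 7 genes, 6 have a row in the table and all 6 passed the filter on low counts, among 14687 genes tested; Rem2 is not analysed here. Rrad was chosen by its measured difference between busulfan and control hearts and between busulfan plus AOS and control hearts, so its differences between groups with and without busulfan are given as a description and without a test. The other 5 genes came in as its relatives and its channel partners.

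The mice carry the strain label IRC. Control mice were untreated. AOS mice received alginate oligosaccharides, short sugar chains from brown algae, at 10 mg/kg for 5 weeks. Busulfan mice received the alkylating drug busulfan once at 40 mg/kg, and the fourth group received that dose followed by AOS at 10 mg/kg for 5 weeks. Age and sex are not given in the labels, and nothing says whether each library is from its own mouse. The p-values therefore reflect the spread between these libraries, which may be technical. Library totals lay between 9929772 and 13620815 estimated counts.

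RGK proteins are small GTPases of the Ras superfamily. They bind the beta subunit of voltage-gated calcium channels and restrain the current through them. In mouse cardiomyocytes, protein kinase A phosphorylates the Rrad protein in response to beta-adrenergic stimulation, which releases Rrad from the channel and lets more calcium enter at each beat. The cardiac L-type channel consists of a pore (encoded by Cacna1c), an intracellular beta subunit (mainly Cacnb2) and an extracellular alpha2delta subunit (mainly Cacna2d1).

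In GRCm38.p6 (the assembly of mm10), RefSeq places Rrad on the minus strand of chr8:104628070-104631350, Gem on the plus strand of chr4:11704447-11714993 and Rem1 on the plus strand of chr2:152627008-152635191. Rem2 lies on the plus strand of chr14:54476100-54480434. Cacna1c spans chr6:118587240-119197384 on the minus strand, Cacnb2 chr2:14603861-14988811 on the plus strand and Cacna2d1 chr5:15934264-16374511 on the plus strand. No source used here says whether reads were counted by strand. The antisense gene Gm33023, which has no row in the table, covers 141 of the 1577 exon bases of Rrad, and Gm10849, Gm10848 and Gm13269 cover 618, 111 and 239 of the 13228 exon bases of Cacnb2 from the other strand.

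The longest stretches that the RGK coding sequences share are shown because Rrad was far more abundant than Gem and Rem1. A read lying wholly within a stretch shared by 2 genes could be counted for either, and a read reaching past it meets differing bases. The longest run of identical coding bases between Rrad and Rem1 was 23 bases, at positions 670 to 692 of 921 coding bases in Rrad and 646 to 668 of 891 in Rem1. Between Rrad and Gem it was 20 bases, at positions 751 to 770 in Rrad and 715 to 734 of 885 in Gem. Positions count from 1 at the first base of the start codon of the GENCODE M21 transcript. The shared runs are shown in capitals with 6 bases on either side.
Rrad, run shared with Rem1: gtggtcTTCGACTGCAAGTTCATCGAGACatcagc
Rem1, run shared with Rrad: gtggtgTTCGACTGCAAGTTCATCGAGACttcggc
Rrad, run shared with Gem: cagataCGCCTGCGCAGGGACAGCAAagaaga
Gem, run shared with Rrad: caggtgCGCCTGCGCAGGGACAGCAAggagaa
Gem and Rem1 shared at most 17 bases in a row, as did Rrad and Rem2.

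Rrad had the highest level per length of the 6 genes, with a mean of 95.7 FPKM (fragments scaled by gene length and library size) over the 12 libraries. Cacna2d1 followed at 50.1 FPKM, Cacna1c at 23.9, Cacnb2 at 21.3, Gem at 5.82 and Rem1 at 4.76. Rrad exceeded Cacna2d1 in 11 of 12 libraries, the exception being replicate 2 of busulfan plus AOS, where Rrad was at its lowest. Cacna2d1 exceeded Cacna1c in 12 of 12 libraries. Cacna1c and Cacnb2 were not in a fixed order, with Cacna1c higher in 7 of 12, and neither were Gem and Rem1, with Gem higher in 5 of 12. The channel genes and the low RGK genes were fully apart: the lowest Cacnb2 value, 18.15 FPKM, lay above the highest Gem value, 13.65 FPKM.

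**Figure D1:**
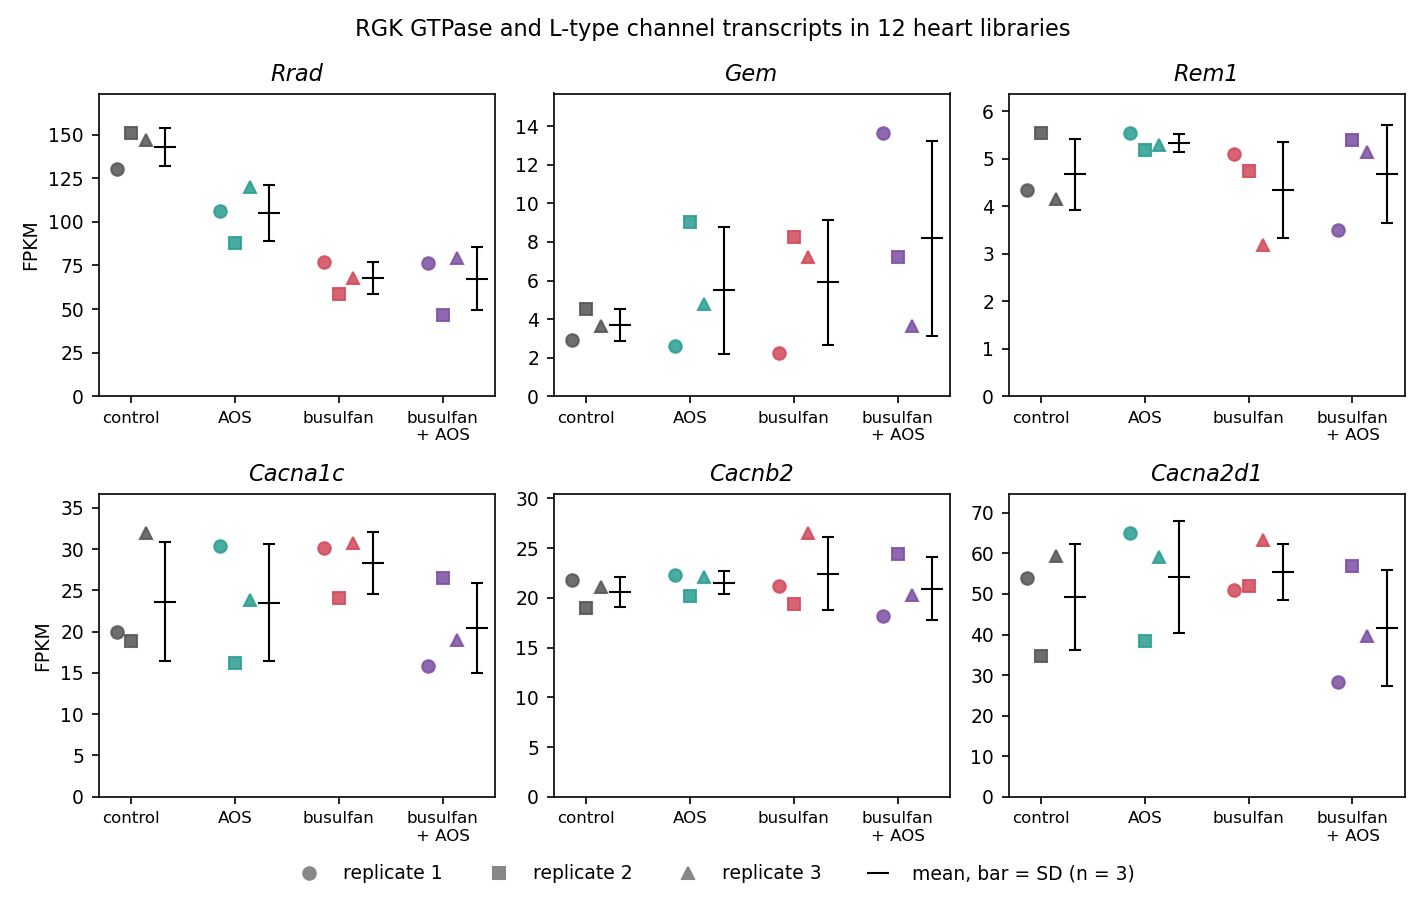
Level of each gene in FPKM (vertical axes, from 0) in the 4 groups. Symbols are libraries (circle, square and triangle for replicates 1, 2 and 3) and the bar beside them is the mean with its SD (n = 3). The 3 control libraries of Rrad sit at 130.2 to 150.96 FPKM, above its other 9 libraries. The other 5 genes overlap in each pair of groups compared in the text. Rem1 in AOS lies just above busulfan, a pair not compared.

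Rrad stood at 130.2, 150.96 and 147.18 FPKM in control replicates 1 to 3, and at 106.09, 88.01 and 120.21 FPKM in AOS. In busulfan hearts it stood at 77.2, 58.76 and 67.64 FPKM, and after busulfan plus AOS at 76.37, 46.51 and 79.13 FPKM. The 6 libraries with busulfan were all lower than the 6 without it, and the AOS libraries lay between the control libraries and the libraries with busulfan. Rrad counts ranged from 838 to 2572 per library.

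The group means of Rrad were 143 ± 11.1 FPKM in control, 105 ± 16.1 in AOS, 67.9 ± 9.22 in busulfan and 67.3 ± 18.1 in busulfan plus AOS (SD, n = 3 each). In the edgeR fit of all 12 libraries, Rrad was 54.8% lower in busulfan than in control hearts, a log2 fold change of -1.15 ± 0.22 (SE). Busulfan plus AOS differed from control by -1.27 ± 0.22 and from AOS by -0.72 ± 0.22 on the log2 scale. These 3 values and the main effect of busulfan, -0.93 ± 0.15, belong to the difference for which Rrad was chosen and carry no test here. Of all genes tested, 5.12% were likewise lower without overlap in busulfan than in control, 4.41% in busulfan plus AOS than in AOS, 10.7% in busulfan plus AOS than in control, and 0.293% in the 6 libraries with busulfan than in the 6 without.

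Comparisons within the hearts without busulfan, or within those with it, are not the differences that chose Rrad and were tested, but they share libraries with those differences and are not independent of the choice. Between AOS and control, Rrad differed by -0.55 ± 0.22 on the log2 scale, a ratio of 0.683, with a 95% interval from -1.02 to -0.074. It was lower in 3 of 3 AOS libraries than in any control library, and 2.54% of all genes tested were lower in AOS without overlap. The difference did not pass the threshold over all genes (edgeR quasi-likelihood test, adjusted p = 0.642). Between busulfan plus AOS and busulfan, the groups overlapped and the log2 difference was -0.13 ± 0.22 (edgeR adjusted p = 0.794), with a 95% interval from -0.60 to 0.35. The main effect of AOS, -0.34 ± 0.15, did not pass either (edgeR adjusted p = 0.287). The interaction of both treatments on Rrad was 0.42 ± 0.30 on the log2 scale and is given without a test.

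Gem, an RGK GTPase induced by stimuli in several cell types, was the most variable of the 6 genes relative to its level, with a 6.15-fold range over the libraries on 56 to 395 counts. It stood at 2.9, 4.54 and 3.66 FPKM in control, 2.62, 9.06 and 4.8 in AOS, 2.22, 8.28 and 7.23 in busulfan, and 13.65, 7.24 and 3.64 in busulfan plus AOS. The highest value was in replicate 1 of busulfan plus AOS and the lowest in replicate 1 of busulfan, and all groups overlapped. The log2 differences were 0.59 ± 0.55 for busulfan against control, 0.41 ± 0.55 for AOS against control and 0.36 ± 0.54 for busulfan plus AOS against busulfan. None passed the threshold (edgeR adjusted p of 0.714, 0.78 and 0.761).

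Rem1, an RGK GTPase of heart muscle, was steadier. It stood at 4.33, 5.53 and 4.16 FPKM in control, 5.54, 5.18 and 5.28 in AOS, 5.09, 4.73 and 3.18 in busulfan, and 3.5, 5.39 and 5.15 in busulfan plus AOS. Its counts, 55 to 99 per library, were the lowest of the 6 genes. Its groups overlapped in each pair compared here. The lowest AOS value, 5.18 FPKM, lay just above the highest busulfan value, 5.09 FPKM, but AOS and busulfan were not compared. The log2 difference was -0.19 ± 0.24 for busulfan against control (edgeR adjusted p = 0.789) and 0.08 ± 0.24 for AOS against control (edgeR adjusted p = 0.914).

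Summed per length, the 3 measured RGK genes came to 151 ± 12.3 FPKM in control, 116 ± 14.1 in AOS, 78.1 ± 6.37 in busulfan and 80.2 ± 18.4 in busulfan plus AOS (SD, n = 3 each). Rrad made up 94.5 ± 0.681% of the sum in control and 86.7 ± 4.75% in busulfan hearts. Gem made up 2.43 ± 0.36% in control and 7.8 ± 4.61% in busulfan hearts. The Gem and Rem1 levels together were small beside the difference in Rrad, so the sum followed Rrad. Sums and shares contain Rrad and are given without a test.

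**Figure D2:**
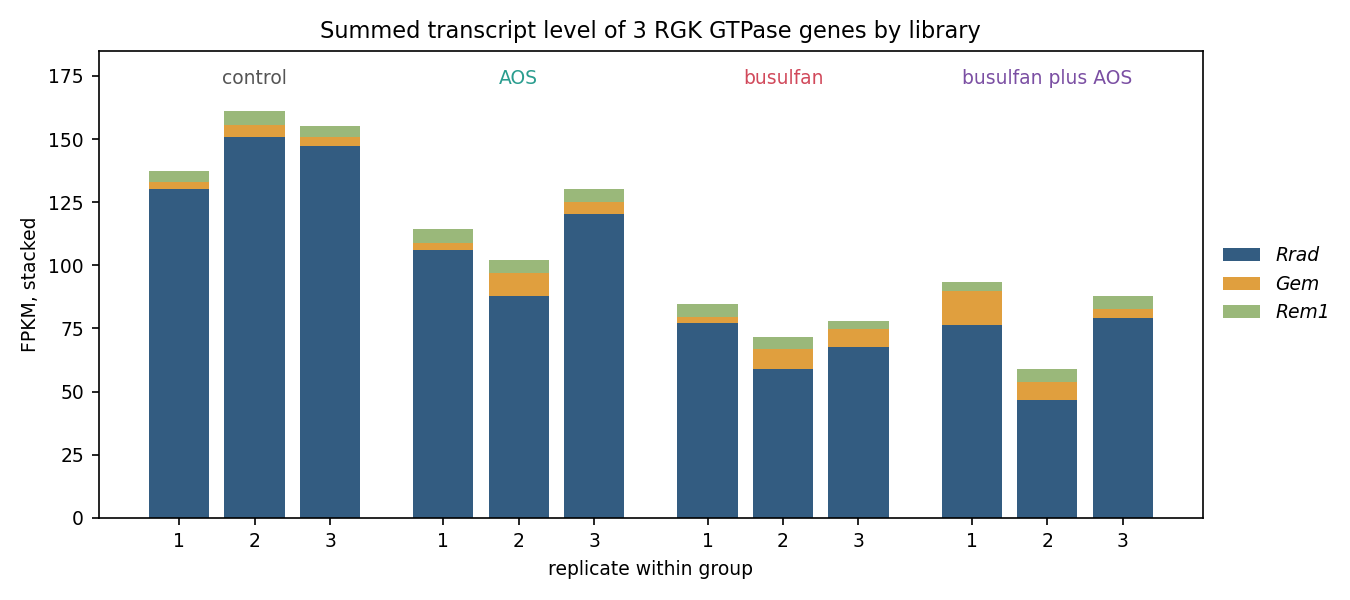
Stacked bars of Rrad, Gem and Rem1 in FPKM (vertical axis, from 0) for each library, by group and replicate. Rrad makes up most of every bar, and the summed level is 137 to 161 FPKM in control and 71.8 to 84.5 FPKM in busulfan hearts.

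Cacna1c, the pore of the channel, stood at 19.99, 18.86 and 31.88 FPKM in control, 30.36, 16.15 and 23.86 in AOS, 30.17, 24.02 and 30.7 in busulfan, and 15.8, 26.43 and 18.99 in busulfan plus AOS. Single libraries of the same group differed by up to about the whole range of the gene, and all groups overlapped. Its log2 difference was 0.16 ± 0.31 between busulfan and control (edgeR adjusted p = 0.868) and -0.56 ± 0.31 between busulfan plus AOS and busulfan (edgeR adjusted p = 0.471).

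Cacnb2 encodes the beta subunit to which RGK proteins bind. It was the steadiest of the 6 genes, with a coefficient of variation of 10.9% over the 12 libraries. It stood at 21.75, 18.93 and 21.12 FPKM in control, 22.27, 20.19 and 22.08 in AOS, 21.22, 19.39 and 26.46 in busulfan, and 18.15, 24.35 and 20.26 in busulfan plus AOS. The groups overlapped. The log2 difference between busulfan and control was 0.02 ± 0.17 (edgeR adjusted p = 0.972), with a 95% interval from -0.35 to 0.39.

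Cacna2d1, the alpha2delta subunit that aids the delivery of channels to the membrane, stood at 53.94, 34.63 and 59.47 FPKM in control, 64.9, 38.43 and 59.2 in AOS, 50.99, 51.97 and 63.26 in busulfan, and 28.26, 56.83 and 39.75 in busulfan plus AOS. The lowest library was replicate 1 of busulfan plus AOS, and the groups overlapped. The log2 difference was 0.18 ± 0.34 between busulfan and control (edgeR adjusted p = 0.865) and -0.55 ± 0.34 between busulfan plus AOS and busulfan (edgeR adjusted p = 0.483).

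Over all genes tested, 0% passed the edgeR threshold between busulfan and control, between AOS and control, and between busulfan plus AOS and busulfan. At an unadjusted p under 0.05 the shares were 10.6%, 6.92% and 10.2%. Of the 5 genes other than Rrad, 0 passed the edgeR threshold in these comparisons, and 0 had an unadjusted p under 0.05. Between AOS and control, Rrad was below that unadjusted level, but this comparison uses the same control libraries as the differences that chose it. Over all genes, 0.306% passed between busulfan plus AOS and control, 0.0204% between busulfan plus AOS and AOS and 0.157% for the main effect of busulfan, while the interaction and the main effect of AOS each had 0%. Again 0 of the 5 passed in any of these. Leaving out busulfan plus AOS against AOS, 0 of the 5 had an unadjusted p under 0.05 in them. The shares of all genes at that unadjusted level were 32.8% between busulfan plus AOS and control, 17.2% for the main effect of busulfan, 2.94% for the interaction and 17.3% for the main effect of AOS. DESeq2 called 0 of the 5 in the 8 comparisons. Of all genes it called 0.354% between busulfan and control, 0.0545% between AOS and control and 0.361% between busulfan plus AOS and busulfan. It called 16.1% between busulfan plus AOS and control and 1.06% between busulfan plus AOS and AOS. For the main effects of busulfan and AOS it called 4.01% and 0.688%, and for the interaction 0.034%. The smallest edgeR adjusted p of the 5 genes other than Rrad in any of the 8 comparisons was 0.241, between busulfan plus AOS and control.

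**Figure D3:**
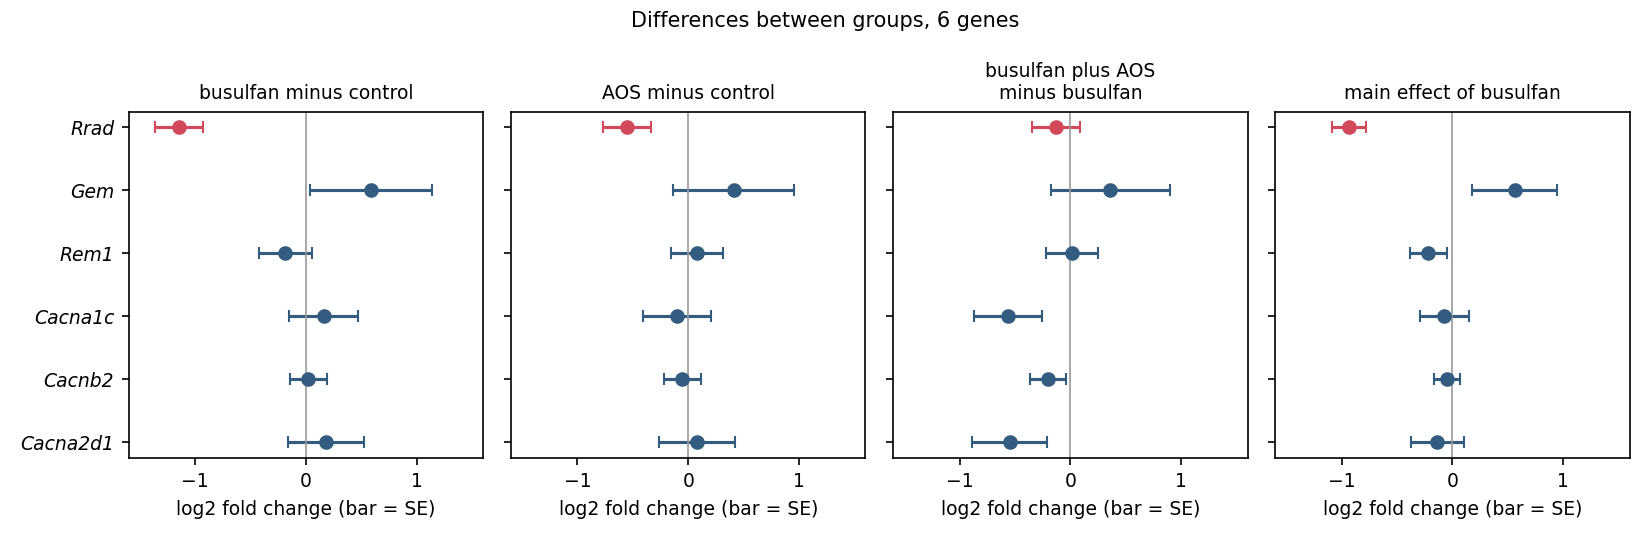
Log2 fold changes (horizontal axes) of the 6 genes in 4 comparisons of the edgeR fit; points are estimates and bars are SE. Rrad, in red, lies at -1.15 for busulfan minus control and -0.93 for the main effect of busulfan, values that chose it, while the main effect of busulfan for the other 5 genes lies between -0.22 and 0.56.

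The ratio of Rrad to the beta subunit it binds, taken per length, was lower in every library with busulfan than in any without. Rrad stood at 5.99 to 7.97 times Cacnb2 in control, 4.36 to 5.44 times in AOS, 2.56 to 3.64 times in busulfan and 1.91 to 4.21 times in busulfan plus AOS. The ratio of Rrad to Cacna1c overlapped, at 4.62 to 8 in control, 3.49 to 5.45 in AOS, 2.20 to 2.56 in busulfan and 1.76 to 4.83 in busulfan plus AOS. Both ratios contain Rrad and are given without a test. The make-up of the channel transcripts differed little by comparison: Cacnb2 stood at 0.917 ± 0.226 times Cacna1c in control and 0.791 ± 0.0807 times in busulfan, and Cacna2d1 at 2.14 ± 0.488 and 1.97 ± 0.248 times Cacna1c (SD, n = 3 each).

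The 3 channel genes varied together from library to library. Cacna2d1 and Cacna1c correlated at Pearson r = 0.911 over the 12 libraries on log2 CPM, counts scaled by library size (Spearman coefficient 0.825, permutation p = 0.0001 for r and 0.00161 for the Spearman coefficient, adjusted 0.00158 and 0.0144 over 25 relations). Cacna2d1 and Cacnb2 correlated at r = 0.881 (Spearman 0.867, permutation p = 0.00017 and 0.00065, adjusted 0.00158 and 0.0144). Cacnb2 and Cacna1c correlated at r = 0.792 (Spearman 0.65, permutation p = 0.00235 and 0.0255, adjusted 0.00839 and 0.058). Without the 2 libraries farthest from the median of the latter gene of each pair, replicate 2 of AOS and replicate 1 of busulfan plus AOS, the 3 coefficients were 0.844, 0.759 and 0.585. Within groups, taken as deviations from the group means, they were 0.908, 0.875 and 0.755. Each group alone has 3 libraries, too few for a coefficient of its own.

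The same variation ran against the atrial markers (Myl7, Myl4, Sln, Nppa, Bmp10 and Pam). Their part in the channel values was not tested beyond the covariate values given with the limits. The summed atrial level ranged from 567 to 8550 FPKM in control, 251 to 15400 in AOS, 285 to 2920 in busulfan and 3550 to 16000 in busulfan plus AOS, and Bmp10 was listed at 0 in all 3 control libraries. Cacna1c fell with the mean log2 CPM of these markers at r = -0.877 (Spearman -0.804, permutation p = 0.00019 and 0.0023, adjusted 0.00158 and 0.0144), Cacna2d1 at r = -0.767 (Spearman -0.713, permutation p = 0.00407 and 0.0122, adjusted 0.0127 and 0.0366) and Cacnb2 at r = -0.717 (Spearman -0.671, permutation p = 0.00981 and 0.0207, adjusted 0.0209 and 0.0518). Without the 2 libraries farthest from the median atrial level, replicate 1 of AOS and replicate 1 of busulfan, the coefficients were -0.867, -0.838 and -0.838. The deviations from the group means gave -0.832, -0.702 and -0.653.

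Gem ran the other way, at r = 0.719 with the atrial markers (Spearman 0.734, permutation p = 0.01 and 0.00881, adjusted 0.0209 and 0.0315). Without the 2 farthest libraries r was 0.497, and for deviations from the group means it was 0.765. Gem also rose with the adipocyte markers (Adipoq, Plin1, Cidec, Lep, Retn, Cfd and Ucp1), at r = 0.776 (Spearman 0.769, permutation p = 0.00478 and 0.00527, adjusted 0.0133 and 0.022), and at 0.787 without the 2 farthest libraries. Rem1 had no relation with a marker list that passed, the smallest adjusted permutation p of r being 0.106. Ventricular markers gave r of 0.843 for Cacna1c, 0.839 for Cacnb2 and 0.814 for Cacna2d1 (permutation p = 0.00069, 0.00034 and 0.00154, adjusted 0.00345, 0.00212 and 0.00642), and 0.595, 0.646 and 0.554 without the 2 farthest libraries. Their Spearman coefficients were 0.706, 0.818 and 0.797 (adjusted permutation p = 0.0366, 0.0144 and 0.0145). Gem ran against the ventricular markers at r = -0.706 (permutation p = 0.00835, adjusted 0.0209), with -0.382 without the 2 farthest libraries. It ran against Rem1 at r = -0.677 (permutation p = 0.0133, adjusted 0.0256), with -0.492 without the 2 farthest. The Spearman coefficients of these 2 Gem relations, -0.622 and -0.615, did not pass (permutation p = 0.034 and 0.038, adjusted 0.0653 and 0.0679). In bulk tissue, fewer cells of a type and less RNA per cell cannot be told apart.

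**Figure D4:**
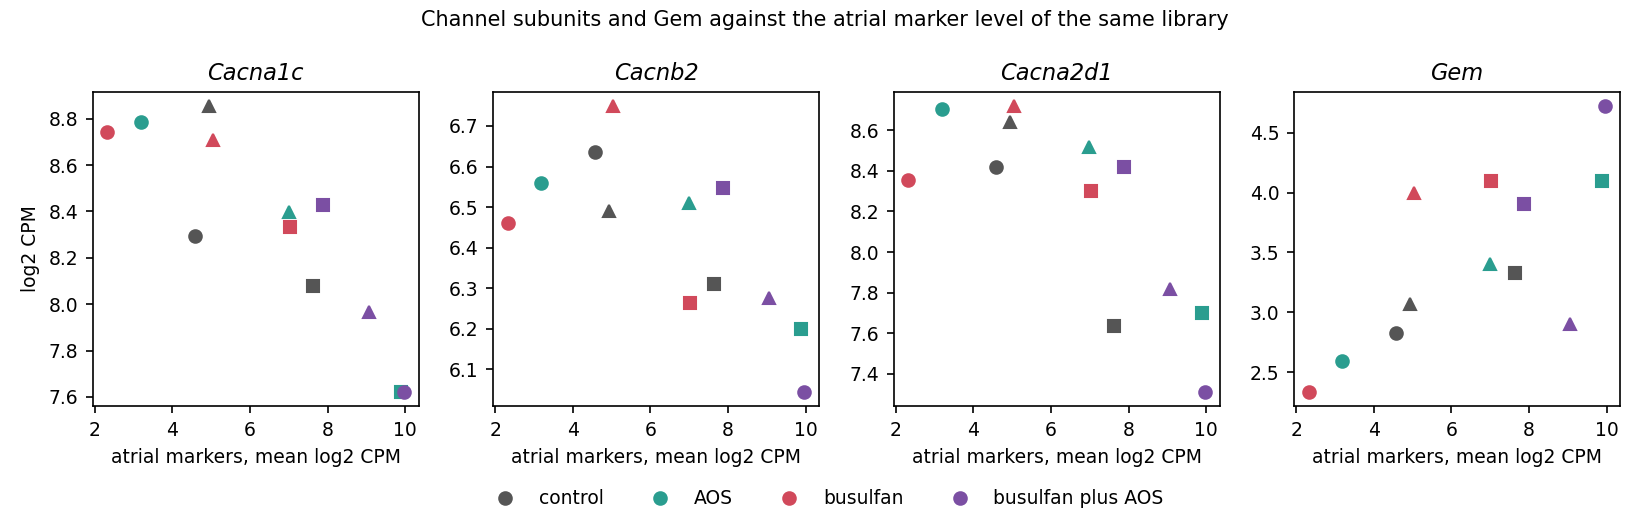
Log2 CPM of Cacna1c, Cacnb2, Cacna2d1 and Gem (vertical axes) against the mean log2 CPM of the 6 atrial markers (horizontal axes) in the 12 libraries; colours are groups and circles, squares and triangles are replicates 1, 2 and 3. The 3 channel genes fall from left to right with r of -0.877, -0.717 and -0.767, and Gem climbs with r of 0.719.

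The promoters of the channel genes are shown because these 3 genes varied together; each is the window with the highest GC content among those RefSeq starts of the gene (GRCm38.p6, 250 bases before to 50 after the start, strand of the gene). GC boxes, GGGCGG on either strand, are in capitals. The windows lie at chr6:119108446-119108745 (minus strand) for Cacna1c, chr2:14604056-14604355 (plus strand) for Cacnb2 and chr5:15934441-15934740 (plus strand) for Cacna2d1.
Cacna1c: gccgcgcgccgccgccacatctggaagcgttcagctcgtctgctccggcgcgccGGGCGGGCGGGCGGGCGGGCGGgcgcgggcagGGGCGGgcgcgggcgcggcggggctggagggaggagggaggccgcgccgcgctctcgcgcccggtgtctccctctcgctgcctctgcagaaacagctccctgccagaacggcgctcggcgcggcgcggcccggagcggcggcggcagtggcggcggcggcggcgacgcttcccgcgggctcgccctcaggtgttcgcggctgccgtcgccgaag
Cacnb2: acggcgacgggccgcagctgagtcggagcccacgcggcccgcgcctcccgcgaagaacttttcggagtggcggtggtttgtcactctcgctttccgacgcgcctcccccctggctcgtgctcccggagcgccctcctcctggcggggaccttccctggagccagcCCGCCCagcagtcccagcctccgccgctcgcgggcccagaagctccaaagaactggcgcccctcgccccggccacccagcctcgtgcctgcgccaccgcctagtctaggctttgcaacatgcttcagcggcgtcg
Cacna2d1: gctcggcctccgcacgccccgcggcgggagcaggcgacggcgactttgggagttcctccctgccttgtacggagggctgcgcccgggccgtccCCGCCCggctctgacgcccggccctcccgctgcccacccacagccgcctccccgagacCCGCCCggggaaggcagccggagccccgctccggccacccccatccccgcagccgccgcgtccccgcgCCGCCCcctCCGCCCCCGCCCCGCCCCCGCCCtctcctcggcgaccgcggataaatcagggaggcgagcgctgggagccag
Their GC content was 81.3%, 71.7% and 80.0%, which the choice of the highest window favours; the median over 32851 RefSeq promoter windows was 52.7%. The other 2 windows of Cacna1c had 51.3% each and the other window of Cacnb2 44.0%. The 3 windows shown held a GC box and these other 3 did not. Which of these starts is used in heart was not tested, so a window shown may not be the one in use. The windows of Rem1 (68.0% GC) and Rem2 (54.7% GC) held GC boxes too, so the motif was not particular to the channel genes. Of all windows, 35.7% hold one, and choosing the window with the highest GC content favours it. The cAMP response element TGACGTCA (1.79% of all windows), the E-box CACGTG (7.15%), the GATA motif AGATAA (11.2%), the D-box TTATGTAA (0.938%) and the MEF2 and CArG box motifs (3.19% and 1.63%) were not found in the 3 windows shown on either strand, which says only that those letters are not in them. Of the 7 genes, 5 had a window in the table, 8 windows in all; Rrad and Gem had none.

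Rrad itself did not follow the channel genes. As a description over the 12 libraries, its r with Cacna1c was 0.206, with Cacnb2 0.211, with Cacna2d1 0.131, with Rem1 0.334 and with Gem -0.528. With the atrial markers its r was -0.345, with the ventricular markers 0.551 and with the adipocyte markers -0.767, the last being -0.453 for deviations from the group means. The summed adipocyte markers stood at 2.78 to 55.3 FPKM in control, 11.2 to 404 in AOS, 5.17 to 649 in busulfan and 456 to 938 in busulfan plus AOS. All 7 adipocyte markers had a higher mean in busulfan than in control, Ucp1 was listed at 0 in all 3 controls, and none passed the edgeR threshold. With the adipocyte markers as a covariate the log2 difference of Rrad between busulfan and control was -0.96, and with the atrial markers -1.20.

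The genes whose log2 CPM was most like that of Rrad over the 12 libraries, among 10754 genes with a mean of at least 5 CPM, were Pdxdc1 (r = 0.935), Dbp (0.926), Paqr7 (0.923), Gid8 (0.918) and Rrp1 (0.917). Most moved far less: Pdxdc1 spanned 0.24 and Rrp1 0.48 on the log2 scale, against 1.79 for Rrad. Paqr7 spanned 1.05, with means of 12.1, 11.2, 8.36 and 8.05 FPKM in control, AOS, busulfan and busulfan plus AOS. By mean FPKM Pdxdc1 and Rrp1 differed little between groups. Pdxdc1 averaged 40, 41, 38 and 39.8 FPKM in control, AOS, busulfan and busulfan plus AOS, and Rrp1 56.4, 55.6, 49.7 and 53.4. Dbp, a transcription factor of the circadian output, spanned 1.7, with means of 7.95, 6.14, 4.38 and 3.46 FPKM in control, AOS, busulfan and busulfan plus AOS. The genes most opposite to Rrad were Creb1, which binds cAMP response elements (r = -0.937), the zinc finger gene Klf3 (-0.935) and Uhrf2 (-0.924). Creb1 had means of 5.93, 7.79, 8.18 and 9.23 FPKM in the 4 groups, and Klf3 11.4, 15.3, 16.3 and 20.7. These are the extremes of many coefficients and are given as a description; for deviations from the group means they ranged from 0.634 to 0.787 and from -0.734 to -0.715.

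The other genes of the pathway were taken from 7 lists of 60 genes in all, of which 54 were tested. None of the 54 passed the edgeR threshold in any of the 8 comparisons; at an unadjusted p under 0.05 there were 5 between busulfan and control (9.26%, against 10.6% of all genes), 1 between AOS and control (1.85%, against 6.92%), 10 for the main effect of busulfan (18.5%, against 17.2%) and 16 between busulfan plus AOS and control (29.6%, against 32.8%). DESeq2 called 0 of the 54 in the pairs busulfan or AOS against control. It called 9 between busulfan plus AOS and control (16.7%, against 16.1% of all genes) and 3 for the main effect of busulfan (5.56%, against 4.01%). The 3 were the 14-3-3 genes Ywhab and Ywhaq and the sarcoplasmic reticulum gene Trdn, named after their values were seen. Among 14 other L-type subunits, 9 were tested, and their median log2 difference between busulfan and control was 0.163 against 0.007 over all genes tested. Cacnb1, another beta subunit, averaged 4.4 FPKM and Cacnb3 2.84, against 21.3 for Cacnb2. Cacna2d2, a second alpha2delta gene, averaged 4.33 FPKM and stood between 0.4 and 17.81, highest in replicate 2 of AOS. Cacna1g, a T-type channel pore, averaged 4.6 FPKM and stood between 1.54 and 7.79; the 2 T-type genes tested, of 3 listed, had a median log2 difference between busulfan and control of 0.313.

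In the beta-adrenergic and protein kinase A list, which holds the signal that acts on Rrad protein, 15 of 15 genes were tested and the median difference between busulfan and control was 0.142. Gnas, the stimulatory G protein, averaged 790 FPKM and had a log2 difference of -0.15 ± 0.12 (edgeR adjusted p = 0.672), and Prkaca, the catalytic subunit of protein kinase A, averaged 125 FPKM and differed by -0.16 ± 0.17 (edgeR adjusted p = 0.743). Of the 14-3-3 genes, whose proteins bind RGK proteins, Ywhab stood at 34.4 ± 3.23 FPKM in control and 48.1 ± 9.74 in busulfan, and Ywhaq at 38.1 ± 4.11 and 51.9 ± 6.88 (SD, n = 3 each). The main effect of busulfan was 0.34 ± 0.09 for Ywhab and 0.35 ± 0.09 for Ywhaq in log2 units (edgeR adjusted p = 0.125 and 0.128). Ywhae, the most abundant at 226 FPKM, differed between busulfan and control by -0.17 ± 0.13 (edgeR adjusted p = 0.66). Calmodulin and CaMKII genes had a median of -0.057 over 6 genes.

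For the genes that move calcium downstream of the channel, the direction depended on how the levels were scaled and averaged. In the TMM-scaled fit the main effect of busulfan was negative for 8 of 8, with a median of -0.219 against 0.002 over all genes, while by mean FPKM 4 were lower and 4 higher with busulfan. Between busulfan and control, 5 of 8 were lower and 3 higher in that fit. Sln, higher by mean FPKM (744 with busulfan, 630 without), averaged 456 in control, 804 in AOS, 145 in busulfan and 1340 in busulfan plus AOS. Pln, the inhibitor of the calcium pump, averaged 3700 FPKM with a main effect of busulfan of -0.30 ± 0.28 (edgeR adjusted p = 0.559), and Atp2a2, the pump, 3640 FPKM with -0.06 ± 0.16 (edgeR adjusted p = 0.853), though its mean FPKM was 3670 with busulfan and 3620 without. The genes that place the channel at T-tubules had a median difference between busulfan and control of -0.088 over 6 genes, with Jph2, a junctional membrane protein, at -0.11 ± 0.26 (edgeR adjusted p = 0.895). The summed ventricular markers stood at 45000 to 52900 FPKM in control, 23900 to 47200 in AOS, 33600 to 43400 in busulfan and 18800 to 35300 in busulfan plus AOS, and their part in these values was not tested.

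Markers of other tissues were uneven between libraries. The lung epithelium gene Scgb1a1 reached 4154.54 FPKM in replicate 2 of AOS and 231.71 in replicate 3, against 45.71 to 85.07 in control, and the atrial gene Bmp10 reached 252.33 and 15.5 in the same libraries. The level in replicate 3 was 5.58% and 6.14% of that in replicate 2, and for the B cell gene Cd79a, at 11.63 and 2.05 FPKM, it was 17.6%. Whether reads passed between these libraries was not tested. Rrad in those AOS libraries was 88.01 and 120.21 FPKM, the lowest and the highest of the AOS group. In busulfan plus AOS, Scgb1a1 reached 1031.49 FPKM in replicate 1. The summed liver markers (Alb, Apoa1 and Ttr) stood at 1130 FPKM in replicate 2 of that group, against 3.31 to 154 in control. That replicate 2 had the lowest Rrad level, 46.51 FPKM. The part of these markers in the Rrad value was not tested, and without replicate 2 of AOS its difference between AOS and control was -0.37 on the log2 scale.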

How the data were processed

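RNA was sequenced from 12 mouse heart samples. Their tissue label says Cells; heart is what the series title and the extraction text name. The authors deposited estimated counts per gene, between 19.7% and 22.8% of them fractional in a library, and a second value per gene taken as FPKM. Per the file headers that value is only an expression value; the lengths it implies, compared between libraries for 1097 genes with values over 50, varied by a median of 0.457%. The build is mm10, per the submitters' processing notes; no source used here names the aligner, counter or annotation. Left unused were 8 columns of group means by the authors. Groups come from the sample titles, with HBA0 read as busulfan alone.

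Rounding the counts to integers shifted no library total by more than 18.1. filterByExpr kept 14687 genes and left out 4559. The quasi-likelihood test of edgeR 4.0.16 under R 4.3.3 was run with TMM factors and 4 group means over all 12 libraries, with Benjamini-Hochberg adjustment over all genes at 0.05. The common biological coefficient of variation was 29.1%. An exact permutation test of 3 libraries against 3 cannot go below p = 0.1, so none is given. Correlations used 100000 two-sided permutations (scipy 1.17.1), adjusted over 25 relations. The test was tested on simulated data. Alternatives included DESeq2 1.42.0, limma 3.58.1 and each library left out. The members and gene lists were chosen with earlier results of these data known. Named genes were all members, up to 4 of each pathway list by mean FPKM, up to 3 of each marker list and markers at 0, and the 5 genes most like and 3 least like Rrad; the overlapping antisense genes, Bmp10, Ucp1 and the genes called by DESeq2 alone were named after their values or positions were seen. The summary of 1 pathway list is not reported here.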

Additional observations from a re-analysis of the deposited data

How the results depend on the processing

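The log2 difference of Rrad between busulfan and control lay between -1.27 and -0.96 over 23 alternatives, and that between AOS and control between -0.69 and -0.37, with the same sign in each. The 5 other members gave 905 values under the alternatives, of which 0 passed. The counts of members past the threshold include Rrad, which these differences chose, and are not read as a test of it. Each count of 1 is Rrad itself. With DESeq2, 0.354% of all genes passed between busulfan and control and 4.01% for the main effect of busulfan. Shares of all genes under the other settings are not given here. Between busulfan and control the count was 1 with DESeq2 and with the atrial marker covariate. Between busulfan plus AOS and control it was 0 with DESeq2 size factors in edgeR, without the filter on low counts, with limma-voom and with either marker covariate, and 0 to 1 when 1 library was left out, 1 only without AOS replicate 2. For the main effect of busulfan it was 1 with no filter, with DESeq2, with the replicate block and with the atrial covariate, and 0 to 1 when 1 library was left out, 1 without AOS replicate 2 and without busulfan replicate 1. Causes were not tested. Rrad differed between busulfan plus AOS and control by -0.93 with the adipocyte covariate.

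Small differences that did not pass changed sign under some settings. With the adipocyte covariate Gem was at -0.52 (busulfan against control), -0.40 (AOS against control), -0.14 (busulfan plus AOS against busulfan) and -0.39 (main effect of busulfan), Rrad at 0.028 for busulfan plus AOS against busulfan, Cacna1c at 0.21 between AOS and control and 0.42 in the main effect of busulfan, Cacnb2 at 0.087 and 0.14, and Cacna2d1 at 0.34 for the main effect of busulfan. With the atrial covariate Cacnb2 was at -0.032 for busulfan against control and 0.0063 for AOS against control. For busulfan plus AOS against busulfan that covariate gave 0.096 for Rrad, -0.64 for Gem, 0.074 for Cacna1c, 0.054 for Cacnb2 and 0.022 for Cacna2d1, and for the main effect of busulfan 0.065 for Cacna1c and 0.0070 for Cacna2d1; limma-voom gave -0.016 for Rem1 for busulfan plus AOS against busulfan. With library totals in place of TMM, the median of all genes was 0.15 between AOS and control and 0.074 for the main effect of busulfan. With TMM these medians were 0.027 and 0.002. With library totals, limma on log2(FPKM + 0.1) and limma on log2(FPKM + 1), Cacnb2 was at 0.062, 0.063 and 0.061 between AOS and control. Under the same settings the main effect of busulfan was 0.024, 0.029 and 0.028 for Cacnb2 and 0.013, 0.054 and 0.052 for Cacna1c.

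With 1 library left out, busulfan against control ranged from -0.13 to 0.13 for Cacnb2 and -0.064 to 0.39 for Cacna2d1. AOS against control ranged from -0.035 to 0.71 for Gem, -0.0072 to 0.18 for Rem1, -0.39 to 0.16 for Cacna1c, -0.14 to 0.050 for Cacnb2 and -0.17 to 0.32 for Cacna2d1. Busulfan plus AOS against busulfan ranged from -0.28 to 0.062 for Rrad, -0.18 to 0.70 for Gem and -0.17 to 0.20 for Rem1, and the main effect of busulfan from -0.20 to 0.071 for Cacna1c and -0.13 to 0.0043 for Cacnb2. Same-numbered libraries of different groups correlated at a median of 0.074 in their deviations from the group means (18 pairs, 6 above 0.1). For 36 pairs of different numbers the median was 0.012, with 12 above 0.1. The ranges overlapped, at -0.452 to 0.554 and -0.536 to 0.505. These values cannot tell whether a number marks a shared batch. The replicate block gave Rrad -1.17 for busulfan against control, -0.59 for AOS minus control and -0.95 for the main effect of busulfan, and changed no call but the one above. Counts of 55 to 99 limit the precision for Rem1.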
